A study of Homo sapiens with 60 samples.

Results

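Sibjeondaebo-tang, a traditional Korean decoction of several herbs, was applied as a water extract to A549 cells, a human non-small cell lung carcinoma line, and its highest dose was set against its lowest. The comparison holds 6 of the 60 libraries of the series, chosen by their labels: 3 from cells given 500 µg/mL and 3 from cells given 20 µg/mL, all at 24 h. Around it stand 3 libraries of the same extract at 100 µg/mL, 3 of vehicle (0.1% DMSO) and the 500 and 20 µg/mL libraries of Palmul-tang (water extract, 2 per dose), Glycyrrhizae Radix (ethanol extract, 3 per dose) and Poria Cocos (ethanol extract, 3 per dose). Palmul-tang is a formula whose herbs Sibjeondaebo-tang also contains, and licorice root (Glycyrrhizae Radix) and the fungus Poria are ingredients of both. The series holds 25 groups, each treated once with a single agent in the same line. The labels name no separate cultures, so p-values measure the spread between libraries, which may be technical. That spread was estimated within the groups of all 60 libraries, not from the 6 compared alone. A549 is 1 tumour line grown in serum, without the other cells of the lung, and in bulk RNA fewer cells in a given state and less RNA per cell cannot be told apart.

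Cells that divide switch on gene groups in sequence: E2F-driven genes that build the replication machinery before S phase, then genes of the G2 and M phases that hold CHR and CCAAT elements in their promoters. A549 cells also respond to inflammatory signals through NF-kB, which drives chemokines and acute-phase proteins, and to aromatic plant compounds through the aryl hydrocarbon receptor, which drives cytochrome P450 genes. BMP signalling turns on the ID genes, whose products block differentiation factors.

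The 6 libraries held 22387823 to 26080825 estimated counts each, over 22689 to 23000 genes above 0. Mitochondrial genes took 15.2 to 21.3% of the counts at 500 µg/mL and 16.8 to 20.4% at 20 µg/mL, so the ranges overlapped. The 8 epithelial markers of the line summed to 12770 to 14208 CPM (a gene's count scaled to its library's total) at 500 µg/mL and to 13056 to 13944 CPM at 20 µg/mL. Among them 2, CDH1 and AKR1C1, were called lower at 500 µg/mL, with log2 changes of -0.14 and -0.15. The CDH1 call was lost in 3 of the 6 fits that left out 1 library (edgeR adjusted p up to 0.0722). That of AKR1C1 was lost in 1 (edgeR adjusted p = 0.107). The hepatocyte list (8 genes) summed to 71.9 to 74.3 CPM at 500 µg/mL and to 86.7 to 96.3 CPM at 20 µg/mL, most of it SERPINA1, which lung epithelium also makes, with ALB at 0.171 CPM at most. The 7 fibroblast markers summed to 13.8 to 16.0 CPM at 500 µg/mL and to 15.8 to 18 CPM at 20 µg/mL. The 6 endothelial markers summed to 17.9 to 18.4 CPM at 500 µg/mL and to 20.1 to 23.3 CPM at 20 µg/mL, mostly KDR, with VWF and CDH5 at 1 count each over the 6 libraries. The 7 leukocyte markers summed to 19.6 to 24.7 CPM at 500 µg/mL and to 18 to 22.5 CPM at 20 µg/mL, mostly CD68, with CD3E at 0 throughout.

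At 500 µg/mL, genes of mitosis and DNA replication stood above their level at 20 µg/mL almost as a block, together with some acute-phase genes. DKK1, FGFBP1, ID2 and 5 of 23 integrin genes, a family counted after its values were seen, were called below their level at 20 µg/mL. The changes were small: the median size among called genes was 0.27 on the log2 scale. The edgeR quasi-likelihood test with Benjamini-Hochberg adjustment called 672 of 17764 genes tested at an adjusted p under 0.05 (3.78%), of which 417 (2.35%) rose and 255 (1.44%) fell. At least 2-fold changes were made by 6 of the rises and 7 of the falls. Among these, the rise of TUBA1B-AS1 rested on 1 library. The falls of ZNG1F (-1.56) and the histone gene H4C15 (-1.11) were each lost in 5 of the 6 fits that left out 1 library. Leaving out the library of replicate 3 at 20 µg/mL left 381 calls, leaving out replicate 2 at that dose left 406, and leaving out replicate 1 at 500 µg/mL left 441. Of the 672, 227 stayed called in each of the 6 fits that left out 1 library, and these are preferred as examples below.

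**Figure D1:**
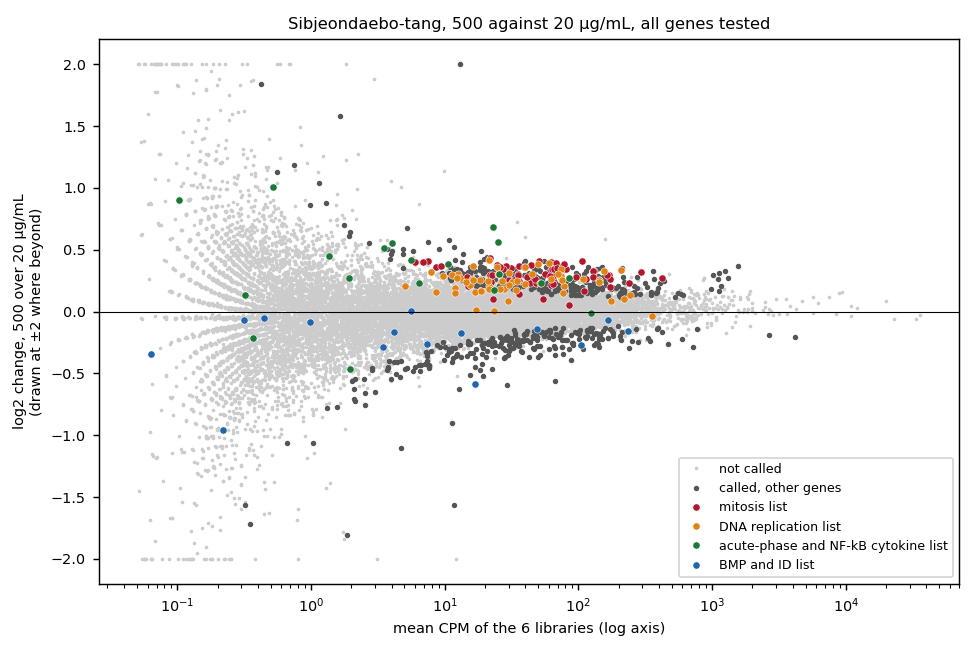
Log2 change at 500 over 20 µg/mL (vertical axis, drawn at ±2 where beyond) against the mean CPM of the 6 libraries (horizontal log axis) for the genes tested, 1 point per gene. Genes whose mean is near 0 are not drawn. Mitosis (red) and DNA replication (orange) genes form a band near 0.3 above the line, while most called genes of any kind lie within 0.5 of it.

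**Figure D2:**
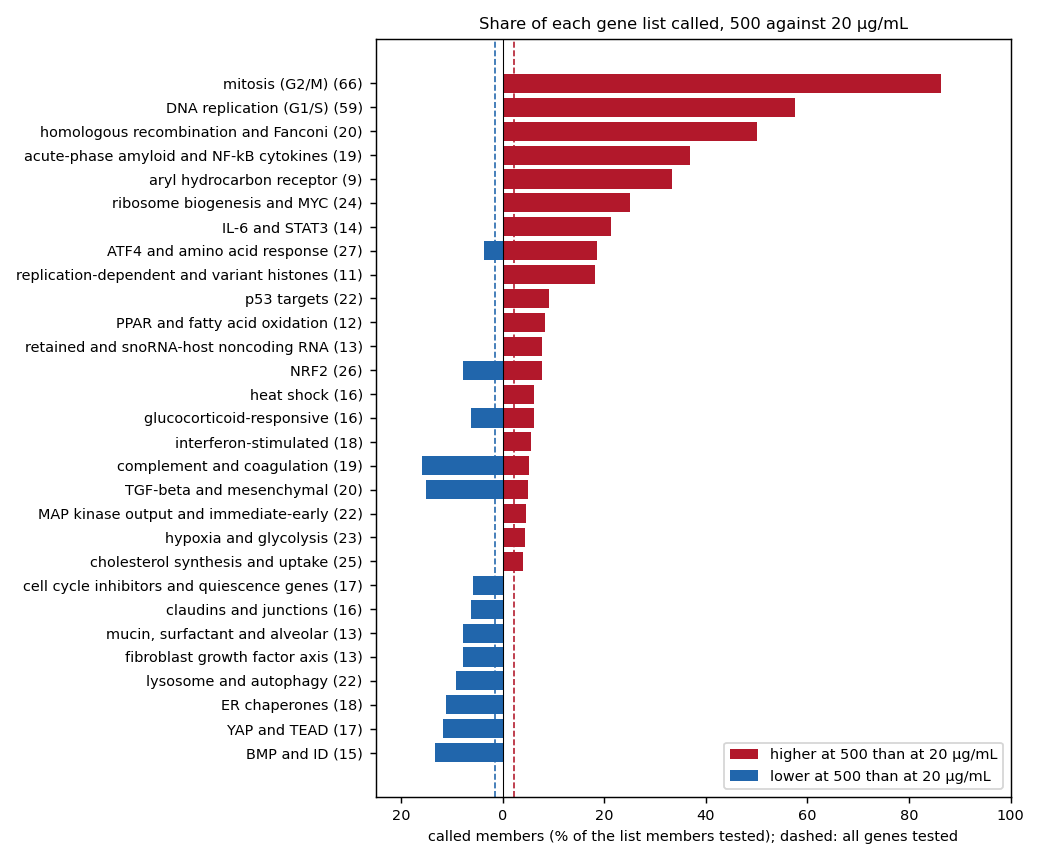
Share of the tested members of each gene list that rose (red, to the right) or fell (blue, to the left) at 500 against 20 µg/mL, with the number of members tested in brackets and dashed lines at the shares over all genes, 2.35% and 1.44%. Only lists with a called member are drawn, and mitosis, DNA replication and homologous recombination are the longest bars.

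Promoters of 4 genes are shown because they hold the elements by which their groups are known; some other members of these groups hold none. Each runs from 250 bases before to 50 after the gene's start, is taken from RefSeq (GRCh38.p14) and is written in the direction of the gene. Capitals mark the elements a search on both strands found: CHR (TTTGAA) and CCAAT boxes in cyclin B2, CCNB2 (chr15:59104896-59105195, plus strand), and in the mitotic kinase PLK1 (chr16:23678639-23678938, plus strand), E2F sites (TTTNNCGC) in the replicative helicase subunit MCM6 (chr2:135876394-135876693, minus strand), and a kappaB site (GGNNTTTCC) in the chemokine CXCL8 (chr4:73740319-73740618, plus strand). In MCM6 each capital run holds overlapping matches on both strands.
CCNB2: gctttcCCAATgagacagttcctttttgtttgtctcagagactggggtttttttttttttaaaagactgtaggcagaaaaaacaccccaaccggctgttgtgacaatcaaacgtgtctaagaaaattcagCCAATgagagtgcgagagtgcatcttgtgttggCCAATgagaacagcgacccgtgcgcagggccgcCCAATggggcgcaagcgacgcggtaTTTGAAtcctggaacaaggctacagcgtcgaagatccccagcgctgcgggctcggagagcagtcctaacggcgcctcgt
PLK1: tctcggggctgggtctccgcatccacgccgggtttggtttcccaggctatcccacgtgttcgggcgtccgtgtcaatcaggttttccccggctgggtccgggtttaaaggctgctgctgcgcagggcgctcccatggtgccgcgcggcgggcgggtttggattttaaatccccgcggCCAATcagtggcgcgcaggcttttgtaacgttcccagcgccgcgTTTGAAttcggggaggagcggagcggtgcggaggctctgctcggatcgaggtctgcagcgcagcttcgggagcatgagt
MCM6: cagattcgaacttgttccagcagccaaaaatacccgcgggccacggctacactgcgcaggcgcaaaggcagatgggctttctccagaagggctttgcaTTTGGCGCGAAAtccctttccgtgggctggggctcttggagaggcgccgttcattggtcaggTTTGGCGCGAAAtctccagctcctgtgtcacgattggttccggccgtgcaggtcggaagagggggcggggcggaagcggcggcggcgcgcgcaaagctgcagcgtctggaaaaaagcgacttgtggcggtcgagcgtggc
CXCL8: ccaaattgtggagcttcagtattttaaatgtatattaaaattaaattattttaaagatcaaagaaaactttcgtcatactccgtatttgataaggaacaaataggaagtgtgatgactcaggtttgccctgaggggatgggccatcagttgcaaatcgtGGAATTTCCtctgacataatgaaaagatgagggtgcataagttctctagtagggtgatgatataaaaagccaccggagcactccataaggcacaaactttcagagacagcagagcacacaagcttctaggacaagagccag

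The CHR letters were found in 38 of the 57 promoters matched among the 66 mitosis genes (66.7%), in 15.4% of all 27305 promoters of the table and in 10.0% of the 12035 promoters of genes tested. CCAAT stood in 70.2% of the mitosis promoters and 35.7% of all. E2F letters were in 23 of 48 DNA replication promoters (47.9%), against 6.9% of all, and kappaB letters in 11 of 19 promoters of the acute-phase and NF-kB cytokine list (57.9%), against 6.26% of all. These matches describe the lists and were not tested against the changes.

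Mitosis genes made the most complete block. Of 66 members tested, 57 rose and none fell, against 2.35% of all genes that rose, and all 66 had a positive log2 change, from 0.05 to 0.43. The median member changed by 0.30, against 0.00 over all genes tested. The 500 µg/mL libraries lay wholly above the 20 µg/mL ones for 62 members, a separation that 10.1% of all genes showed. Leaving out any 1 library left 48 to 51 members called.

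Cyclins and mitotic kinases rose in 16 of 16 cases, with a median of 0.34. CCNB1, the cyclin that activates CDK1 at mitotic entry, had 84.5, 91.4 and 90.2 CPM at 500 µg/mL, against 73.9, 61.0 and 69.3 CPM at 20 µg/mL. All 3 libraries at 500 µg/mL were above all 3 at 20 µg/mL, a log2 change of 0.38 ± 0.06 (SE, n = 3 each; edgeR adjusted p = 3.15e-05). CCNB2 had 70.8, 80.5 and 76.8 CPM at 500 µg/mL, against 61.1, 55.9 and 62.3 CPM at 20 µg/mL. It too separated the doses, by 0.35 ± 0.05 (edgeR adjusted p = 1.42e-05). PLK1, the kinase of spindle assembly and mitotic exit, had 154, 144 and 134 CPM at 500 µg/mL, against 115, 116 and 114 CPM at 20 µg/mL. Its change was 0.33 ± 0.07 (edgeR adjusted p = 0.00231), on a wider spread at the higher dose. PKMYT1, a kinase that holds CDK1 inactive until mitosis, rose by 0.43 ± 0.09 in the same test (edgeR adjusted p = 0.0023).

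Activators and substrates of the anaphase-promoting complex, the ligase that ends mitosis, rose in 8 of 8 cases with a median of 0.35. UBE2S, the ubiquitin-conjugating enzyme that lengthens the chains this ligase builds, had 144, 151 and 142 CPM at 500 µg/mL, against 120, 112 and 116 CPM at 20 µg/mL. The doses did not overlap, and the change was 0.33 ± 0.05 (edgeR adjusted p = 6.13e-06).

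Kinetochore and centromere genes rose in 12 of 15 cases, with a median of 0.30. The checkpoint kinase BUB1 had 73.5, 74.1 and 71.2 CPM at 500 µg/mL, against 55.5, 59.7 and 57.1 CPM at 20 µg/mL. Both doses were tight and apart, with a change of 0.34 ± 0.05 (edgeR adjusted p = 1.96e-06). HJURP, the chaperone that loads CENP-A at centromeres, had 80.7, 77.5 and 74.4 CPM at 500 µg/mL, against 57.8, 61.4 and 58.0 CPM at 20 µg/mL, a change of 0.39 ± 0.05 (edgeR adjusted p = 5.01e-06). BIRC5 (survivin), of the chromosomal passenger complex, had 125, 107 and 133 CPM at 500 µg/mL, against 94.2, 91.0 and 89.8 CPM at 20 µg/mL. Its 500 µg/mL libraries spread widely but stayed above, by 0.41 ± 0.08 (edgeR adjusted p = 0.000677). Outside the lists, the inner kinetochore subunit CENPH (chr5:69189548-69210357) was among the largest rises of all genes of at least 5 CPM. It stood at 9.26, 8.16 and 9.46 CPM at 500 µg/mL, against 5.90, 6.28 and 5.99 CPM at 20 µg/mL, a log2 change of 0.56 ± 0.08 (edgeR adjusted p = 1.54e-05). Of 21 centromere protein (CENP) genes, a family counted after its values were seen, 5 rose and none fell, with a median of 0.18.

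Kinesins and spindle genes rose in 16 of 20 cases, with a median of 0.26. KIF20A, a kinesin of the central spindle, had 75.2, 71.3 and 65.0 CPM at 500 µg/mL, against 51.7, 54.0 and 54.2 CPM at 20 µg/mL. The lowest library at 500 µg/mL was still above the highest at 20 µg/mL, and the change was 0.40 ± 0.06 (edgeR adjusted p = 2.31e-05). TACC3, which crosslinks spindle microtubules, had 67.9, 67.6 and 71.9 CPM at 500 µg/mL, against 54.7, 54.5 and 54.8 CPM at 20 µg/mL. Its 20 µg/mL libraries were nearly identical, and the change was 0.34 ± 0.05 (edgeR adjusted p = 3.81e-06). Condensins and chromosome genes rose in 5 of 7 cases with a median of 0.27; among them the decatenating enzyme TOP2A had 311, 343 and 327 CPM at 500 µg/mL, against 258, 267 and 260 CPM at 20 µg/mL. That change was 0.32 ± 0.05 (edgeR adjusted p = 2.4e-05). MKI67, the usual proliferation marker, had 511, 446 and 426 CPM at 500 µg/mL, against 382, 402 and 361 CPM at 20 µg/mL, and its 0.27 ± 0.09 did not pass (edgeR adjusted p = 0.0874), although the doses did not overlap.

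DNA replication genes followed with 34 of 59 higher and none lower, a median of 0.25 and 58 positive changes; leaving out 1 library left 25 to 31 called. Origin licensing and helicase genes were the most complete of them, with 15 of 18 higher and a median of 0.29. MCM2, a helicase subunit, had 65.7, 68.7 and 69.5 CPM at 500 µg/mL, against 52.6, 47.9 and 54.4 CPM at 20 µg/mL. The doses stood well apart, with a change of 0.40 ± 0.06 (edgeR adjusted p = 6.37e-06). MCM7 had 166, 175 and 175 CPM at 500 µg/mL, against 142, 132 and 137 CPM at 20 µg/mL, a change of 0.33 ± 0.04 (edgeR adjusted p = 5.5e-07). MCM6, whose promoter is shown above, had 81.0, 85.8 and 82.7 CPM at 500 µg/mL, against 73.0, 70.2 and 73.2 CPM at 20 µg/mL. Its change was among the smaller ones of the helicase, 0.21 ± 0.04 (edgeR adjusted p = 0.000741).

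Of polymerases and fork proteins, 11 of 21 rose. LIG1, the ligase that joins lagging-strand fragments, had 44.7, 44.1 and 45.3 CPM at 500 µg/mL, against 36.1, 34.7 and 33.9 CPM at 20 µg/mL. Both doses were tight, with a change of 0.36 ± 0.05 (edgeR adjusted p = 7.03e-06). Nucleotide synthesis genes rose in 6 of 10 cases, among them RRM1, the large subunit of ribonucleotide reductase, with 118, 119 and 119 CPM at 500 µg/mL, against 101, 97.3 and 99.2 CPM at 20 µg/mL. That was a change of 0.26 ± 0.04 (edgeR adjusted p = 5.52e-06). The cyclins and E2F regulators at the start of the programme rose in only 2 of 10 cases. CCNE1 (cyclin E1) changed by 0.01 ± 0.08 (edgeR adjusted p = 0.979), CCNE2 by 0.21 ± 0.13 (edgeR adjusted p = 0.486) and E2F1 by 0.26 ± 0.08 (edgeR adjusted p = 0.0635). The difference between these roles was not tested.

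Homologous recombination and Fanconi genes, which mend broken and stalled forks, rose in 10 of 20 cases and fell in none. Over all genes 2.35% rose and 1.44% fell. When 1 library was left out, 8 or 9 members were called. RAD54L, a DNA-dependent motor protein of recombination, had 11.4, 10.2 and 10.1 CPM at 500 µg/mL, against 7.22, 7.58 and 7.52 CPM at 20 µg/mL. The doses did not overlap, with a change of 0.51 ± 0.07 (edgeR adjusted p = 5.52e-06). BLM, a helicase of recombination intermediates, rose by 0.36 ± 0.06 in the same test (edgeR adjusted p = 9.86e-05). Beside these lists, none of the 17 cell cycle inhibitor and quiescence genes rose and 1 fell, CCNG2, whose call was lost without replicate 1 at 500 µg/mL (edgeR adjusted p = 0.204), without replicate 2 at 20 µg/mL and without replicate 3 at 20 µg/mL. The inhibitor CDKN1A (p21) changed by 0.02 ± 0.05 (edgeR adjusted p = 0.886).

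Several gene families that came up among the called genes were counted after their values were seen, so their counts are descriptions. Of 24 heterogeneous nuclear ribonucleoproteins, which package and splice nascent RNA, 13 rose and none fell, with a median of 0.15. Of 13 alpha and beta tubulins, whose genes share long stretches of sequence that can divide reads between them, 6 rose. The tubulin TUBB4B had 403, 406 and 403 CPM at 500 µg/mL, against 320, 314 and 333 CPM at 20 µg/mL, a change of 0.32 ± 0.05 (edgeR adjusted p = 8.51e-06). The nuclear lamina gene LMNB1 had 58.5, 52.1 and 54.7 CPM at 500 µg/mL, against 42.0, 43.5 and 43.2 CPM at 20 µg/mL, a change of 0.36 ± 0.07 (edgeR adjusted p = 0.000596). Separase, ESPL1, the protease that opens cohesin at anaphase, also chosen after its values were seen, rose by 0.40 ± 0.05 (edgeR adjusted p = 2.44e-06).

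Ribosome biogenesis genes moved in the same direction by less. All 24 members had positive changes with a median of 0.16, and 6 were called, between 2 (without replicate 3 at 20 µg/mL) and 6 when 1 library was left out; without replicate 1 or replicate 3 at 500 µg/mL it was 3. Fibrillarin, FBL, the methyltransferase of ribosomal RNA, had 261, 258 and 269 CPM at 500 µg/mL, against 229, 217 and 228 CPM at 20 µg/mL. Its change was 0.23 ± 0.04 (edgeR adjusted p = 0.000385). MYC, the transcription factor that drives these genes, changed by 0.16 ± 0.07 and did not pass (edgeR adjusted p = 0.275). Of 25 cytosolic ribosomal protein genes none was called by edgeR, with a median change of 0.05. The 24 nuclear genes of the respiratory chain and the 13 mitochondrially encoded genes had no called member either, with medians of 0.06 and 0.05.

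Acute-phase and NF-kB cytokine genes rose in 7 of 19 cases tested and fell in none, with a median of 0.30, against 2.35% of all genes that rose. Of the 24 listed genes, 5 (SAA4, CXCL6, IL6, TNF and CSF2) were too low to test. SAA2, a serum amyloid whose near-identical neighbour SAA1 can take part of its reads, had 28.3, 27.7 and 28.9 CPM at 500 µg/mL, against 17.2, 15.3 and 20.4 CPM at 20 µg/mL. All 3 libraries at the higher dose were above, by 0.68 ± 0.09 (edgeR adjusted p = 1.17e-06). LCN2, an iron-withholding secreted protein, had 31.0, 31.1 and 26.9 CPM at 500 µg/mL, against 18.8, 20.2 and 21.1 CPM at 20 µg/mL. The doses did not overlap, but its 0.56 ± 0.14 (edgeR adjusted p = 0.00978) no longer passed without replicate 1 at 20 µg/mL (edgeR adjusted p = 0.0553). CFB, factor B of the alternative complement pathway, had 11.9, 11.4 and 12.8 CPM at 500 µg/mL, against 9.51, 8.36 and 9.66 CPM at 20 µg/mL. Its 0.39 ± 0.09 (edgeR adjusted p = 0.00489) was lost without replicate 2 at 20 µg/mL (edgeR adjusted p = 0.0642), as was the 0.56 ± 0.13 of CXCL8 (edgeR adjusted p = 0.0588). Of the 7 calls, 5 were left without replicate 1, 2 or 3 at 500 µg/mL, 4 without replicate 1 at 20 µg/mL, 3 without replicate 2 at 20 µg/mL and 6 without replicate 3 at 20 µg/mL, and SAA2 was called in all of these fits.

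Around that list the picture was partial, where 2.35% of all genes tested rose and 1.44% fell. None of the 20 NF-kB subunit and feedback genes was called by edgeR, while 3 of 14 IL-6 and STAT3 genes rose and none fell. The IL-6 and STAT3 list had a median of -0.055. For 7 of its members the 500 µg/mL libraries lay wholly below those at 20 µg/mL. That separation was shown by 1746 of all 17764 genes tested. Of 18 interferon-stimulated genes 1 rose, with a list median of -0.075, and that call was lost without replicate 2 at 500 µg/mL or replicate 2 or 3 at 20 µg/mL. LBP, the lipopolysaccharide-binding protein, had 31.5, 31.2 and 33.3 CPM at 500 µg/mL, against 24.7, 24.3 and 27.5 CPM at 20 µg/mL, a change of 0.33 ± 0.07 (edgeR adjusted p = 0.00143). The next secreted products were picked out after their values were seen. S100A9, a subunit of calprotectin, had 12.8, 14.2 and 14.8 CPM at 500 µg/mL, against 8.94, 9.27 and 10.8 CPM at 20 µg/mL, a change of 0.52 ± 0.11 (edgeR adjusted p = 0.00148). The chemokine CCL5 (chr17:35871491-35880793), at a few CPM only, had 2.91, 2.35 and 2.1 CPM at 500 µg/mL, against 0.969, 0.563 and 0.916 CPM at 20 µg/mL. It had one of the largest called rises, 1.58 ± 0.26 on the log2 scale (edgeR adjusted p = 6.29e-05).

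Aryl hydrocarbon receptor genes split. Of 9 tested, 3 rose and none fell, with a median of -0.01, against 2.35% of all genes that rose. CYP1B1, a cytochrome P450 that oxidises aromatic compounds, had 153, 153 and 157 CPM at 500 µg/mL, against 119, 122 and 123 CPM at 20 µg/mL, a change of 0.35 ± 0.04 (edgeR adjusted p = 3.85e-07). The aldehyde dehydrogenase ALDH3A1 had 1291, 1262 and 1199 CPM at 500 µg/mL, against 998, 1017 and 1002 CPM at 20 µg/mL, a change of 0.31 ± 0.04 (edgeR adjusted p = 1.64e-06). The doses of both genes stood clear of each other. CYP1A1, the third called, lost its call without replicate 1 at 500 µg/mL (edgeR adjusted p = 0.2), without replicate 2 at 20 µg/mL (0.111) and without replicate 3 at 20 µg/mL (0.0888). TIPARP, a feedback target of the receptor, changed by -0.07 ± 0.05 (edgeR adjusted p = 0.561).

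Stress programmes moved by small amounts. Over all genes tested, 2.35% rose and 1.44% fell. Of 27 ATF4 and amino acid response genes, 5 rose and 1 fell, a larger share of rises than over all genes. In this list 23 changes were positive, with a median of 0.09. When 1 library was omitted, 3 or 4 rises were left (3 without any single library other than replicate 3 at 20 µg/mL). PHGDH, which opens serine synthesis, had 28.8, 28.5 and 28.3 CPM at 500 µg/mL, against 25.6, 24.0 and 23.4 CPM at 20 µg/mL, a change of 0.23 ± 0.05 (edgeR adjusted p = 0.00176). SLC38A2, a neutral amino acid transporter of the same list, went the other way, with 241, 258 and 266 CPM at 500 µg/mL, against 312, 292 and 303 CPM at 20 µg/mL, a change of -0.25 ± 0.05 (edgeR adjusted p = 0.00175). ASNS, the asparagine synthetase that ATF4 drives, changed by 0.05 ± 0.05 (edgeR adjusted p = 0.766). Among 26 NRF2 targets 2 rose and 2 fell, and 20 changes were positive, with a median of 0.07. The rises numbered 1 without replicate 1 or 3 at 500 µg/mL or replicate 2 or 3 at 20 µg/mL, and the falls numbered 1 without any single library other than replicate 3 at 500 µg/mL. HMOX1 (heme oxygenase) changed by 0.25 ± 0.08 without passing (edgeR adjusted p = 0.0614). Only 1 of 16 heat shock genes was called, HSP90AB1, at 0.17 ± 0.03 (edgeR adjusted p = 0.000883). Of 22 p53 targets 2 rose, but 0 did without replicate 1 at 500 µg/mL or replicate 3 at 20 µg/mL, and 1 did without replicate 3 at 500 µg/mL or replicate 1 or 2 at 20 µg/mL. Of 25 cholesterol genes 1 rose, a call lost without any single library other than replicate 2 at 500 µg/mL, and none of 13 fatty acid synthesis genes was called by edgeR.

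**Figure D3:**
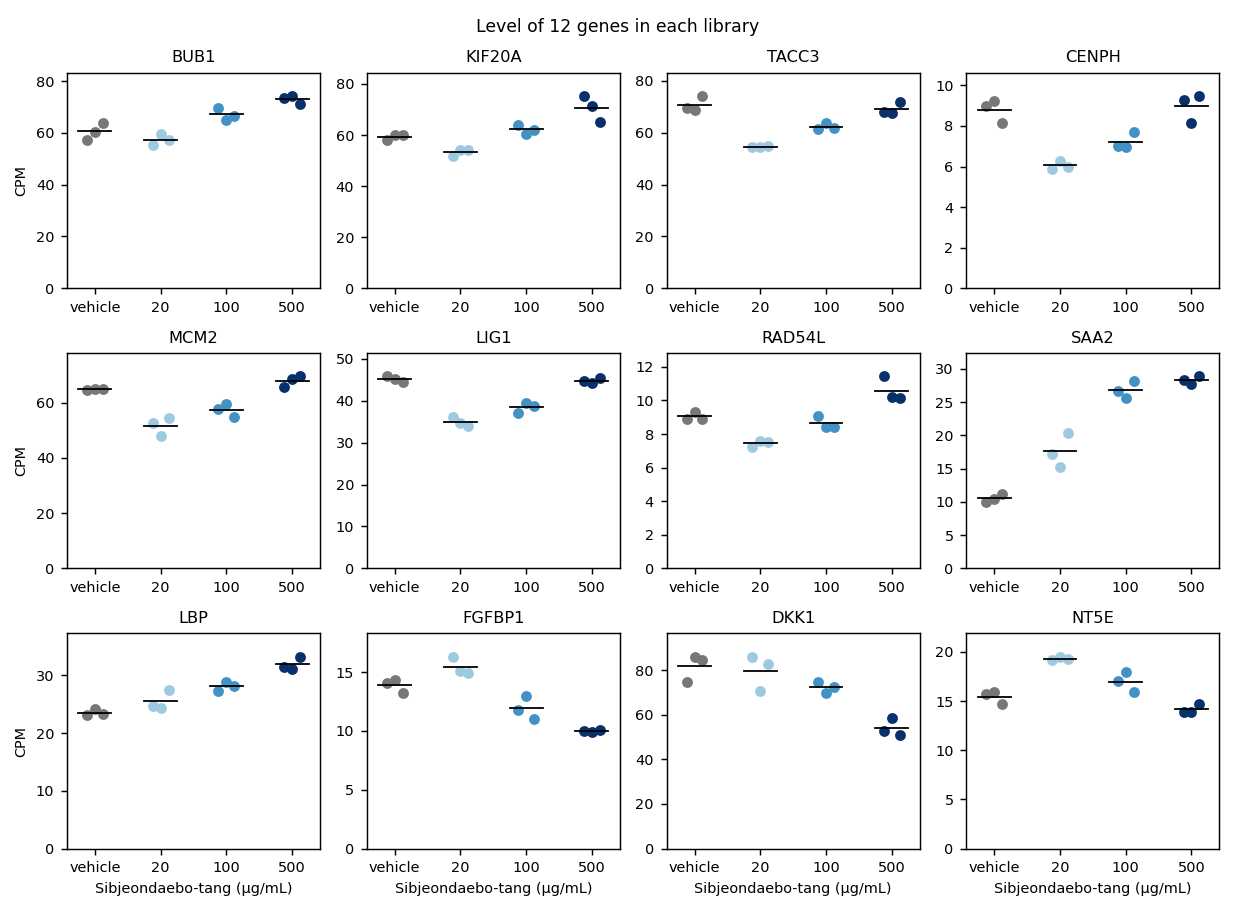
CPM (vertical axes, from 0) of 12 genes in each library, by Sibjeondaebo-tang dose with vehicle at the left, and 3 points and their mean per group. The rising genes stand highest at 500 µg/mL among the extract doses, while FGFBP1, DKK1 and NT5E stand lowest there, and SAA2 is already near its top value at 100 µg/mL.

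The genes that fell included secreted regulators and surface proteins. DKK1, a secreted inhibitor of Wnt receptors, had 52.7, 58.7 and 51.0 CPM at 500 µg/mL, against 86.2, 70.5 and 82.9 CPM at 20 µg/mL. The doses did not overlap, although replicate 2 at 20 µg/mL was low within its group, and the change was -0.56 ± 0.07 (edgeR adjusted p = 1.35e-06). FGFBP1, which frees fibroblast growth factors from the matrix, had 10.0, 9.91 and 10.0 CPM at 500 µg/mL, against 16.3, 15.1 and 15.0 CPM at 20 µg/mL, a change of -0.63 ± 0.08 (edgeR adjusted p = 1.95e-06). It was the only called gene of the 13 tested in the fibroblast growth factor list. In the YAP and TEAD list 2 of 17 fell, ANKRD1 and NT5E, against 1.44% of all genes that fell. The usual readouts of that list, CCN1 and CCN2, changed by -0.06 ± 0.10 and 0.00 ± 0.10 (edgeR adjusted p = 0.874 and 0.998). NT5E (CD73), the surface enzyme that makes adenosine, had 13.9, 13.9 and 14.7 CPM at 500 µg/mL, against 19.2, 19.5 and 19.2 CPM at 20 µg/mL, a change of -0.45 ± 0.08 (edgeR adjusted p = 0.000109).

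BMP and ID genes leaned down: 14 of 15 had a negative change, with a median of -0.17. Of these 2 were called, against 1.44% of all genes that fell. ID2 had 13.4, 14.1 and 12.9 CPM at 500 µg/mL, against 21.4, 19.6 and 19.9 CPM at 20 µg/mL, a change of -0.59 ± 0.10 (edgeR adjusted p = 5.99e-05). ID3 had 92.0, 93.2 and 97.1 CPM at 500 µg/mL, against 121, 102 and 116 CPM at 20 µg/mL. Its -0.27 ± 0.07 (edgeR adjusted p = 0.0105) was lost without replicate 1 at 20 µg/mL (edgeR adjusted p = 0.0968) or replicate 3 at 20 µg/mL (edgeR adjusted p = 0.0651). ID1 had 159, 165 and 166 CPM at 500 µg/mL, against 178, 153 and 182 CPM at 20 µg/mL, with overlapping doses and a change of -0.07 ± 0.05 (edgeR adjusted p = 0.609).

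Complement and coagulation genes fell in 3 of 19 cases and rose in 1, CFB, described above, against 1.44% of all genes that fell and 2.35% that rose. KNG1 (kininogen) had 13.0, 13.2 and 12.2 CPM at 500 µg/mL, against 17, 18.1 and 19.5 CPM at 20 µg/mL, a change of -0.51 ± 0.10 (edgeR adjusted p = 0.000749). CPB2, a plasma carboxypeptidase outside the lists and chosen after its values were seen, fell by 0.46 on the log2 scale (SE 0.10, edgeR adjusted p = 0.00418). These are liver-type genes, and the summed hepatocyte markers given above were lower at 500 µg/mL too; the part of either in the other was not tested.

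Integrin subunits, counted after their values were seen, fell in 5 of 23 cases and rose in none, with a median of -0.15. Over all genes 1.44% fell. ITGA3, the alpha chain of a laminin receptor, had 672, 644 and 631 CPM at 500 µg/mL, against 782, 799 and 788 CPM at 20 µg/mL. The doses stood apart, with a change of -0.28 ± 0.04 (edgeR adjusted p = 7.03e-06). ITGA1, the alpha chain of a collagen receptor, had 96.1, 97.1 and 98.0 CPM at 500 µg/mL, against 114, 124 and 120 CPM at 20 µg/mL, a change of -0.30 ± 0.05 (edgeR adjusted p = 5.99e-05). EHF, an epithelial ETS transcription factor also chosen after its values were seen, had 68.2, 66.6 and 69.5 CPM at 500 µg/mL, against 81.5, 90.5 and 87.2 CPM at 20 µg/mL. Its change was -0.34 ± 0.04 (edgeR adjusted p = 1.35e-06). MATN2, a matrix adaptor protein, had 17.8, 19.4 and 19.4 CPM at 500 µg/mL, against 27.3, 25.5 and 25.5 CPM at 20 µg/mL, a change of -0.47 ± 0.07 (edgeR adjusted p = 7.03e-06). The antisense RNA IGFL2-AS1 (chr19:46189166-46203083, minus strand) had 8.36, 8.08 and 7.23 CPM at 500 µg/mL, against 15.1, 15.0 and 14.2 CPM at 20 µg/mL. It fell by 0.90 on the log2 scale (SE 0.10, edgeR adjusted p = 3.29e-07).

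One called rise rested on a single library. TUBA1B-AS1 (chr12:49127782-49147869, plus strand) had 77.1, 0.152 and 0.042 CPM at 500 µg/mL, against 0, 0.130 and 0.115 CPM at 20 µg/mL. Only replicate 1 at 500 µg/mL was high, and without it the edgeR adjusted p was 0.994. The locus overlaps TUBA1B on the opposite strand, and since the strand setting of the counting is not given in the sources used here, reads of these genes may not be told apart. TUBA1B itself had 1906, 1785 and 1599 CPM at 500 µg/mL, against 1346, 1373 and 1384 CPM at 20 µg/mL, a change of 0.37 ± 0.08 (edgeR adjusted p = 0.00362).

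Genes that fell had longer transcripts than those that rose. Median length was 3066 bases for genes that rose, 4664 bases for genes that fell and 3147 bases for all genes tested, and median GC content was 50.5%, 45.0% and 48.7% in the same order. Whether length or GC content played a part in the calls was not tested.

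The 100 µg/mL libraries show where along the dose range the genes moved. Both steps were small on their own: edgeR called 14 genes at 100 against 20 µg/mL (0.0788%; 9 higher, 0.0507%, and 5 lower, 0.0281%) and 17 at 500 against 100 µg/mL (0.0957%; 9 higher, 0.0507%, and 8 lower, 0.045%). Leaving out 1 library left 1 to 3 calls in the lower step, 3 without replicate 3 at 100 µg/mL and 1 otherwise, and 4 to 25 in the upper one. In the upper step 4 were left without replicate 3 at 500 µg/mL or replicate 3 at 100 µg/mL, 5 without replicate 1 at 500 µg/mL or replicate 2 at 100 µg/mL and 7 without replicate 1 at 100 µg/mL. These comparisons share libraries with the main one, so they are set side by side and not counted as separate support.

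SAA2 moved in the lower step. It had 26.7, 25.7 and 28.2 CPM at 100 µg/mL, a change of 0.61 ± 0.09 against 20 µg/mL (edgeR adjusted p = 0.000155), and 0.07 ± 0.08 from there to 500 µg/mL (edgeR adjusted p = 0.915). It was the call of the lower step that held in all 6 fits leaving out 1 library. Of the 9 aryl hydrocarbon receptor genes, CYP1B1 and ALDH3A1 were the 2 called in the upper step, and the list median there was 0.05. CYP1B1 had 136, 124 and 124 CPM at 100 µg/mL, which is 0.08 above 20 µg/mL (edgeR adjusted p = 0.892), and it rose by 0.27 ± 0.04 from 100 to 500 µg/mL (edgeR adjusted p = 0.000234). ALDH3A1 had 1021, 1036 and 1033 CPM at 100 µg/mL, 0.03 above 20 µg/mL, and rose by 0.28 ± 0.04 in the upper step (edgeR adjusted p = 0.000234). Both upper-step calls held in all 6 fits leaving out 1 library, as did that of the tropomyosin gene TPM1, which fell by 0.19 on the log2 scale. Those fits still took the spread from the other groups of the series. No upper-step call of edgeR held when only the libraries compared were fitted. DKK1 had 74.8, 69.9 and 72.6 CPM at 100 µg/mL, and most of its change lay in the upper step, -0.42 ± 0.07 (edgeR adjusted p = 0.00268), against -0.14 in the lower one (edgeR adjusted p = 0.87); the upper call was lost without replicate 3 at 500 µg/mL (edgeR adjusted p = 0.0766). ID2 had 18.4, 20.0 and 18.5 CPM at 100 µg/mL and changed by -0.10 and then by -0.49 ± 0.10 (edgeR adjusted p = 0.0187), a call lost in 4 of the 6 fits: without replicate 1 or 3 at 500 µg/mL and without replicate 2 or 3 at 100 µg/mL, with adjusted p up to 0.15. Whether the lower and the upper step of a gene differ from each other was not tested.

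**Figure D4:**
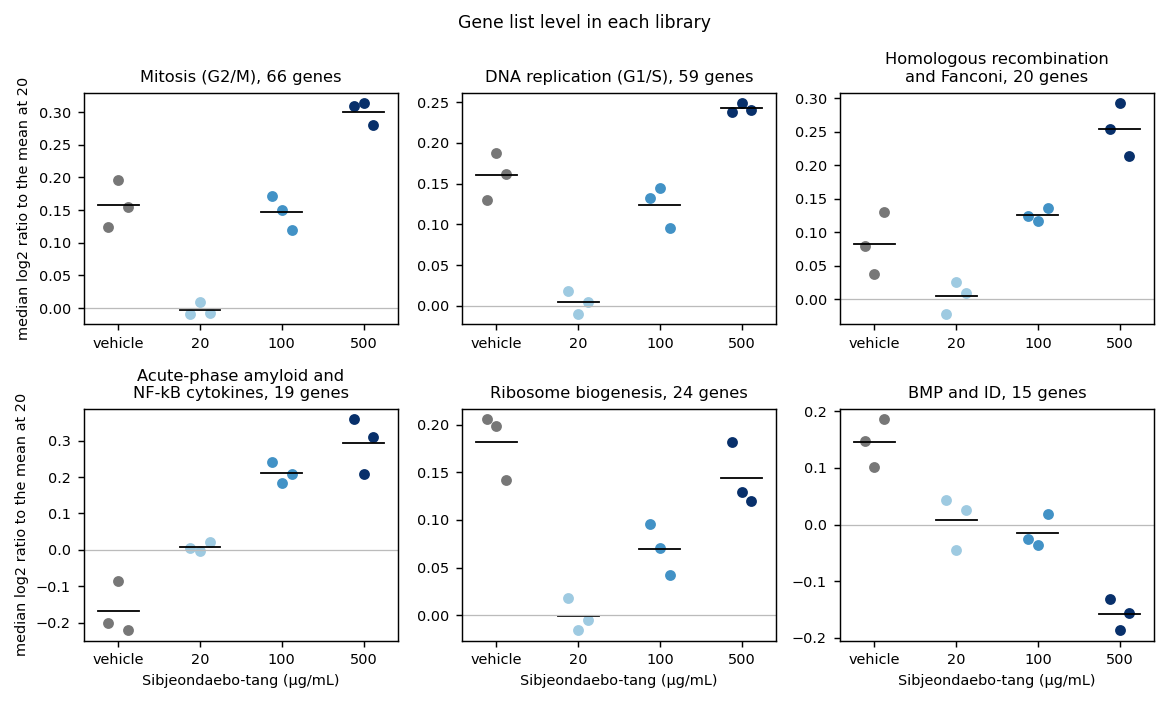
Median log2 ratio of a list's members to their mean at 20 µg/mL (vertical axes, pseudocount 0.5 CPM), 1 point per library and a line at the group mean, by dose with vehicle at the left. In the mitosis, replication and recombination panels the 100 µg/mL libraries lie between those at 20 and 500 µg/mL, and vehicle lies above 20 µg/mL.

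Taken as list levels, the mitosis genes stood at a median log2 ratio to the 20 µg/mL mean of 0.12 to 0.17 in the 100 µg/mL libraries and of 0.28 to 0.31 in the 500 µg/mL libraries. Replication genes stood at 0.10 to 0.14 and at 0.24 to 0.25 at these doses. In neither list did the libraries of the 3 doses overlap. The acute-phase and cytokine genes stood at 0.19 to 0.24 at 100 µg/mL and at 0.21 to 0.36 at 500 µg/mL, with overlap between these doses. BMP and ID genes stood at -0.04 to 0.02 at 100 µg/mL and at -0.19 to -0.13 at 500 µg/mL.

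Vehicle libraries place both doses against cells given DMSO, with the limits that the DMSO content of the extract libraries is not stated in the labels, that the vehicle libraries carry another sample code than the extract libraries, so code and treatment cannot be told apart, and that both comparisons use the same vehicle libraries. At 500 µg/mL, edgeR called 2693 genes against vehicle (15.2%), of which 9.04% of all genes tested were higher and 6.12% lower. At 20 µg/mL it called 4282 (24.1%), with 12.6% higher and 11.5% lower. Without replicate 2 of vehicle these counts were 1629 at 500 µg/mL and 2907 at 20 µg/mL. The lower dose was thus the one with more calls against vehicle, a difference between counts that was not tested.

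For the cell cycle genes the 20 µg/mL libraries lay below vehicle. Of the 66 mitosis genes, 27 were higher and none lower at 500 µg/mL against vehicle, with a median of 0.14, and 1 was higher and 31 lower at 20 µg/mL against vehicle, with a median of -0.16. Of the 59 replication genes, 11 were higher and 1 lower at 500 µg/mL, and 1 was higher and 29 lower at 20 µg/mL. Members differed in where vehicle fell. BUB1 had 57.4, 60.5 and 63.7 CPM in vehicle, close to 20 µg/mL (log2 difference -0.07, edgeR adjusted p = 0.26) and below 500 µg/mL (0.27, edgeR adjusted p = 5.59e-05). TACC3 had 69.7, 68.6 and 74.1 CPM in vehicle, close to 500 µg/mL (-0.03) and above 20 µg/mL (-0.37, edgeR adjusted p = 1.15e-07). CENPH, at 8.96, 9.23 and 8.15 CPM in vehicle, and LIG1, at 45.8, 45.2 and 44.3 CPM, had log2 differences of 0.02 and -0.01 at 500 µg/mL against vehicle. All 8 genes around the anaphase-promoting complex were lower at 20 µg/mL than in vehicle, and none was called at 500 µg/mL by edgeR. Of the 25 ribosomal protein genes, 14 were lower at 500 µg/mL than in vehicle and 17 at 20 µg/mL.

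Taken as a list median, the acute-phase and cytokine genes lay above vehicle by 0.37 at 500 µg/mL and by 0.26 at 20 µg/mL. SAA2 had 10.1, 10.5 and 11.1 CPM in vehicle, a log2 difference of 1.42 at 500 µg/mL (edgeR adjusted p = 5.07e-15) and of 0.74 at 20 µg/mL (edgeR adjusted p = 1.65e-07). CFB had 5.70, 5.51 and 6.34 CPM in vehicle, with differences of 1.04 and 0.65 at these doses. Of the 19 acute-phase and cytokine genes, 10 were higher and none lower at 500 µg/mL, against 9.04% and 6.12% of all genes tested. At 20 µg/mL 4 were higher and 1 lower, against 12.6% and 11.5% of all genes, so most members were not called there. ID2 and ID3 lay below vehicle at both doses: ID2 had 25.8, 27.9 and 25.1 CPM in vehicle, with differences of -0.96 at 500 µg/mL and -0.37 at 20 µg/mL, and ID3 had 150, 169 and 151 CPM, with differences of -0.74 and -0.47. DKK1 had 74.8, 85.7 and 84.7 CPM in vehicle, matching 20 µg/mL (-0.03) and above 500 µg/mL (-0.59).

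The same doses of related extracts were compared through the difference between their dose effects, a single test per gene. No gene's dose effect differed between Sibjeondaebo-tang and Palmul-tang in the edgeR test (0 of 17764 called, 0%), with 904 genes at an unadjusted p under 0.05 and 1 call by DESeq2. Palmul-tang, with 2 libraries per dose, had 370 called genes of its own (2.08%), of which 229 rose (1.29%). Mitosis genes rose in 57 of 66 cases with Sibjeondaebo-tang (median 0.30) and in 53 of 66 with Palmul-tang (median 0.34), and replication genes in 34 and 28 of 59. BUB1 changed by 0.34 ± 0.05 with Sibjeondaebo-tang and by 0.42 ± 0.06 with Palmul-tang, a difference of -0.08 with a 95% interval of -0.22 to 0.06. MCM2 changed by 0.40 ± 0.06 with Sibjeondaebo-tang and by 0.19 ± 0.07 with Palmul-tang, a difference of 0.20 (0.03 to 0.38), and SAA2 by 0.68 ± 0.09 and 0.36 ± 0.10, a difference of 0.32 (0.06 to 0.59); neither passed the adjusted test (edgeR adjusted p = 0.936 for both genes). These intervals leave room for sizeable differences at single genes.

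Against Poria, 3 genes differed (0.0169%): IGFL2-AS1, TUBA1B-AS1, high in single libraries, and the histone gene H4C14. IGFL2-AS1 changed by -0.90 ± 0.10 with Sibjeondaebo-tang and by -0.04 ± 0.10 with Poria, a difference of -0.86 (-1.14 to -0.59; edgeR adjusted p = 0.00162). The H4C14 call was lost in 9 of the 12 fits that left out 1 library (edgeR adjusted p up to 0.304), and that of TUBA1B-AS1 without replicate 1 of Sibjeondaebo-tang at 500 µg/mL or replicate 1 of Poria at 20 µg/mL. The histone gene H4C15 differed in the opposite direction to H4C14, by -2.196, without passing (edgeR adjusted p = 0.126). Whether reads were divided between these histone genes was not tested. Replicate 3 of Poria at 20 µg/mL stood apart, with 28101 genes above 0 against 21744 to 23495 in the other 59 libraries. Without it 5 genes differed, IGFL2-AS1 still among them by -0.84. SAA2 changed by 0.05 ± 0.10 with Poria, and its difference of 0.63 (0.36 to 0.89) missed the threshold (edgeR adjusted p = 0.0939), as it did without that library (0.62, edgeR adjusted p = 0.212). Poria had 275 called genes of its own (1.55%), of which 189 rose (1.06%), and 38 of the 66 mitosis genes rose with it, with a median of 0.23. Without that library, a setting chosen after seeing the data, these counts were 184 called and 133 higher, and 28 mitosis genes rose with a median of 0.23.

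Against Glycyrrhizae, 4335 genes differed (24.4%), 2323 with a higher (13.1%) and 2012 with a lower dose effect (11.3%) in Sibjeondaebo-tang. Glycyrrhizae alone had 6568 called genes (37%; 18.5% rose and 18.4% fell), and 10 mitosis genes rose and 31 fell with it. The difference was called for 52 mitosis genes, in 51 of them with the higher dose effect in Sibjeondaebo-tang. KIF20A changed by 0.40 ± 0.06 with Sibjeondaebo-tang and by -0.65 ± 0.06 with Glycyrrhizae, a difference of 1.06 (edgeR adjusted p = 3.48e-13). CYP1B1 changed by 0.35 ± 0.04 with Sibjeondaebo-tang and by 2.65 ± 0.04 with Glycyrrhizae, a difference of -2.31 (edgeR adjusted p = 2.66e-32). SAA2 went in opposite directions, 0.68 ± 0.09 with Sibjeondaebo-tang and -0.89 ± 0.12 with Glycyrrhizae, a difference of 1.57 (1.29 to 1.85; edgeR adjusted p = 4.81e-12). PHGDH changed by 0.23 ± 0.05 with Sibjeondaebo-tang and by 2.28 ± 0.04 with Glycyrrhizae, and 24 of the 27 ATF4 genes had a lower dose effect in Sibjeondaebo-tang. FGFBP1 fell with both, and its difference of -0.17 did not pass (edgeR adjusted p = 0.329).

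**Figure D5:**
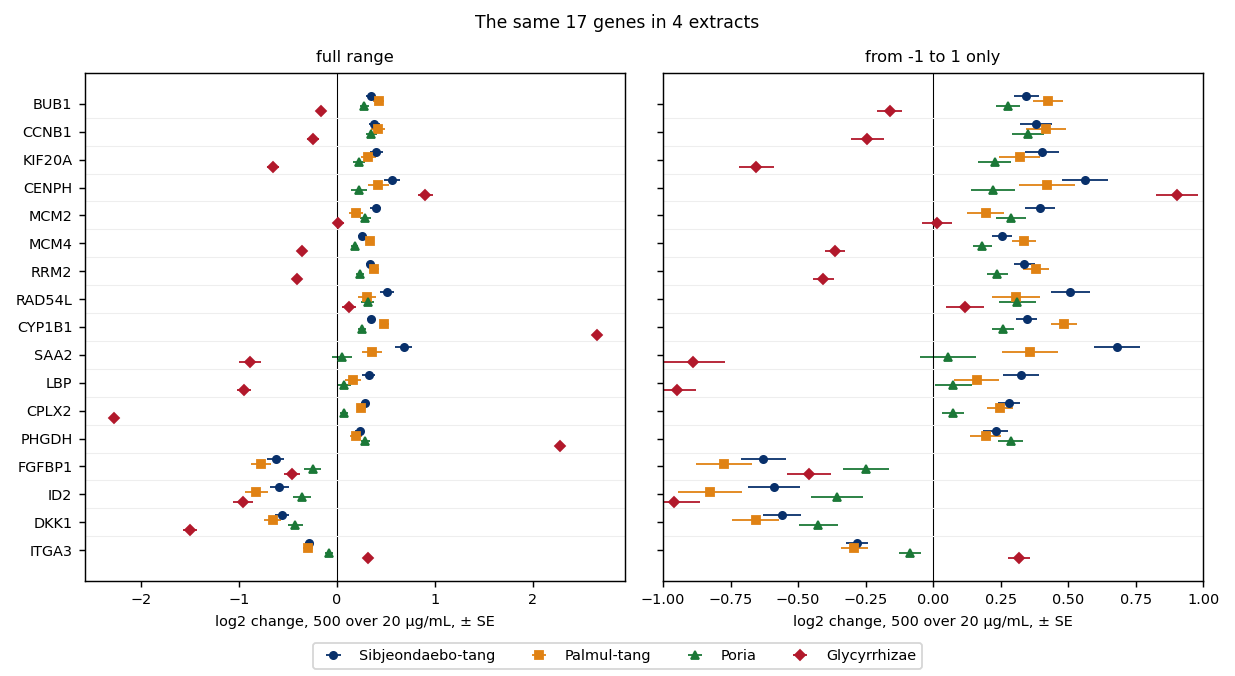
Log2 change at 500 over 20 µg/mL with its standard error (horizontal axes; full range at the left, -1 to 1 at the right) of 17 genes in 4 extracts, 1 row per gene and 1 symbol per extract. No difference between Sibjeondaebo-tang (circles) and Palmul-tang (squares) was called, although some pairs stand apart, such as those of SAA2, ID2 and MCM2. Poria (triangles) lies on the same side of 0 as Sibjeondaebo-tang or near 0. Glycyrrhizae (diamonds) departs widely at CYP1B1, PHGDH, CPLX2 and SAA2. It also departs at other genes, among them LBP, KIF20A, DKK1, RRM2 and ITGA3.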

How the data were processed

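Messenger RNA of A549 cells was sequenced 24 h after treatment, with a directional library kit and paired 100-base reads per the labels' protocols. Per the submitters' processing notes, FastQC 0.11.9, Trim Galore 0.6.5, STAR 2.7.3a and RSEM 1.3.3 were used with the hg38 (GRCh38) genome. Neither the gene annotation nor the strandedness option is stated in the labels. The authors deposited RSEM expected counts per gene for 60675 genes in 270 columns; 60 were mapped to samples by name, and 210 were left unused. Of values above 0, 75.98% were whole within 1e-09, and all were rounded.

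Doses follow the labels; the design text gives lower doses, tied to the IC20, for extracts whose IC20 is below 500 µg/mL, and 2% DMSO where the labels give 0.1%. The wortmannin control it names was not analysed here.

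Genes passing filterByExpr (17764) were fitted with edgeR 4.0.16 in R 4.3.3 (TMM scaling, quasi-likelihood test, all 60 libraries, 1 mean per group, 35 residual degrees of freedom, Benjamini-Hochberg over all genes, threshold 0.05). Log2 changes are 500 over 20 µg/mL unless stated, with the fit's standard error, and 95% intervals are 1.96 standard errors either way. CPM use TMM-scaled library sizes, except that summed markers use library totals. Differences between extracts were tested as interaction terms. The fit was also run on simulated counts with known changes. Those counts were drawn independently for each gene and library, so they hold no deviation shared across the genes of a library. Symbols came from a gene name table and positions from GENCODE 29. Members and gene lists were chosen with earlier results of these data known. Genes named were the 15 largest rises and 15 largest falls of at least 5 CPM, up to 4 called members per list or role, fixed marker genes, and for interactions the 5 largest each way; other genes were chosen after their values were seen. Replicates differed by more than counting noise (chi-square per degree of freedom 4.46 to 28.3). Alternatives were other scalings, no filter, DESeq2 1.42.0, a replicate block, only the libraries compared, and each library left out.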

Additional observations from a re-analysis of the deposited data

Results flagged for a closer look

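The dose effect, 500 against 20 µg/mL, differed between Sibjeondaebo-tang and Glycyrrhizae for 4335 genes by the interaction test of edgeR. Counting only called genes that averaged 5 CPM or more in 1 or more of the 4 groups, the largest lower dose effects in Sibjeondaebo-tang were those of CYP1A1 (difference of -6.98 on the log2 scale), ADM2 (-5.04), ULBP1 (-4.73), NIBAN1 (-3.93) and CHAC1 (-3.21). CYP1A1 averaged 0.664 CPM at 500 µg/mL and 0.183 CPM at 20 µg/mL of Sibjeondaebo-tang, and 215 CPM at 500 µg/mL and 0.466 CPM at 20 µg/mL of Glycyrrhizae. CHAC1, which degrades glutathione, averaged 2.59 and 2.24 CPM at 500 and 20 µg/mL of Sibjeondaebo-tang, and 26.6 and 2.47 CPM at these doses of Glycyrrhizae. The largest higher dose effects among these genes were those of CLDN2 (3.01), MAPK4 (2.99), LEFTY1 (2.82), PGC (2.67) and CPLX2 (2.56). CPLX2 averaged 299 and 246 CPM at 500 and 20 µg/mL of Sibjeondaebo-tang, and 49.6 and 241 CPM at these doses of Glycyrrhizae. Its difference had the smallest adjusted p of these 10 genes (edgeR adjusted p = 3.87e-33).

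Against Poria the dose effect differed for 3 genes. IGFL2-AS1 differed by -0.86, and H4C14 differed by 2.73. H4C14 averaged 6.29 and 3.15 CPM at 500 and 20 µg/mL of Sibjeondaebo-tang, and 1.79 and 5.88 CPM at these doses of Poria. Its call was lost in 9 of the 12 fits that left out 1 library. The histone gene H4C15 differed in the opposite direction, by -2.196, without passing (edgeR adjusted p = 0.126). Whether reads were divided between H4C14 and H4C15 was not tested. TUBA1B-AS1 differed by 15.4, a fitted value from groups near 0: it averaged 25.8 and 0.0815 CPM at 500 and 20 µg/mL of Sibjeondaebo-tang, and 0.172 and 26.9 CPM at these doses of Poria, with 77.1 CPM in 1 Sibjeondaebo-tang library.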

How the results depend on the processing

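The count of genes called between 500 and 20 µg/mL (672) stayed within 1.5 times under RLE scaling (673), upper-quartile scaling (669), no filter (647, of which 443 were among the 672), DESeq2 (699, of which 599 were among the 672) and both replicate blocks over all libraries (808 and 961). It was 268 with only the 6 libraries fitted, 146 with these and a replicate block, and 244 without both replicate 1 at 500 µg/mL and replicate 2 at 20 µg/mL, a setting chosen after seeing the data. Leaving out 1 library gave 381 to 503, with 441 without replicate 1 at 500 µg/mL, and 406 and 381 without replicates 2 and 3 at 20 µg/mL. Mitosis genes called higher (57) numbered 43 with only the 6 libraries fitted and 42 without both libraries, and replication genes (34) numbered 23 and 19 under these settings. Same-numbered libraries did not deviate together (r = -0.104, -0.181 and 0.081), so the numbers were not taken as pairs. For 100 against 20 µg/mL (14), the count was 88 with no filter, 7 with only the libraries compared and 1 to 3 without 1 library. For 500 against 100 µg/mL (17) it was 154 with no filter, 75 by DESeq2, 48 and 64 with the replicate blocks, 0 with only the libraries compared (edgeR; 1302 at an unadjusted p under 0.05, while DESeq2 was run on all libraries only) and 4 to 25 without 1 library. Against vehicle at 500 µg/mL (2693) it was 1629 to 2547 without 1 library. The difference from Palmul-tang (0) gave 61 with no filter and 1 by DESeq2. That from Poria (3) gave 93 with no filter, 7 by DESeq2, 6 and 7 with the replicate blocks and 1 to 5 without 1 library. Where counts moved, the cause was not tested, except that fits of fewer libraries hold fewer samples by construction.

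Of 118 called genes chosen by the naming rule, 47 lost their call with only the 6 libraries fitted, 65 with the replicate block as well, 55 without both libraries, 19 without the filter and 15 to 37 without 1 library, and none of the 118 changed direction. Of 14 uncalled ones put through the same settings, CDKN1A and ULBP1 did: CDKN1A (0.02) ranged from -0.0113 to 0.0587 without 1 library and was -0.0154 without both libraries above, and ULBP1 (-0.11) ranged from -0.32 to 0.16 and was 0.0434 without both. With 3 libraries per dose, the median size of the called changes between 500 and 20 µg/mL was 0.27 on the log2 scale, and 2662 genes had an unadjusted p under 0.05 against 672 called.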
